A study of Mus musculus with 24 samples.

Results

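DNA replication and nucleotide supply genes were followed through 12 mouse gliomas, in sorted tumour cells and in the cells around them. The set holds 39 named genes of the 55938 in the deposited table, matched by gene symbol. It has 15 genes of origin licensing and the replicative helicase, 13 of polymerases, clamp, clamp loader, single-strand binding and ligation, 6 of nucleotide supply and uracil removal, and 5 of chromatin copying and S phase control. The members were grouped by what their proteins do, and were chosen with earlier results of these libraries known. Gliomas had been raised by somatic transfer of PDGFB, a growth factor for oligodendrocyte precursors, into the telencephalic ventricles of mouse embryos in the uterus. No further genotype or strain is given in the sources used here, and every group shares the PDGFB transfer. Tumours were microdissected by their fluorescence and taken apart into single cells, and a sorter separated the glioma cells (fluorescent) from surrounding cells without fluorescence, for 24 bulk RNA libraries. The asymptomatic group held 4 tumours taken 33 to 34 days after transduction. Another 4 formed the early symptomatic group (35 to 50 days). In the late symptomatic group were 4 tumours of 100 to 175 days. Early and late follow the letters that end the sample descriptions. Tumour 3057E carried a red fluorescent label and the other 11 a green one. A replicate here is 1 tumour. Stages share no tumour code prefix, so stage, days after transduction and code prefix cannot be told apart.

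Replication is prepared in G1, when the origin recognition complex with Cdc6 and Cdt1 loads the Mcm2 to Mcm7 helicase ring onto DNA. At the start of S phase Cdc45 and the GINS complex turn that ring into the active helicase, polymerase alpha with primase lays the primers, and polymerases delta and epsilon extend them on the Pcna clamp. Ribonucleotide reductase, thymidylate synthase, thymidine kinase and dUTPase feed the polymerases with deoxynucleotides. Transcription of many of these genes is driven by E2F factors once cells pass the G1 checkpoint, which is why the group is read as a mark of cycling cells in brain tumours. Oligodendrocyte precursors are a main dividing cell type of the postnatal brain, and PDGFB drives their division.

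Library totals ran from 9.08e+06 to 1.55e+07 counts. Levels are CPM (counts scaled to library size), adjusted by the TMM method over all 24 libraries. They are not divided by gene length, so levels are compared only within a gene. In bulk RNA, fewer cells of a type and less RNA per cell cannot be told apart. The sort was checked on marker lists. Summed over 14 microglia markers, glioma libraries held 128 to 2658 CPM and surrounding libraries 2432 to 22169 CPM. The highest glioma value was that of 3057E, 2658 CPM against 2432 CPM in its surrounding cells. Summed over 12 oligodendrocyte precursor (OPC) markers, glioma libraries held 11723 to 19556 CPM and surrounding libraries 769 to 14019 CPM. Precursor markers were thus high in every glioma library, and surrounding cells were a mixture that also held precursor transcripts. In tumours 3108D and 3109D the female transcript Xist was crossed between populations: 1591 CPM in glioma and 2.08 CPM in surrounding cells of 3108D, and 1.89 CPM in glioma and 1079 CPM in surrounding cells of 3109D. Counts of edgeR calls among the 39 that rest on these codes are also given without both tumours. Counts of tumours with the higher value in glioma cells pair the codes as labelled. They were not recomputed with the codes exchanged. By the values listed below, an exchange would raise the counts of Orc1, Mcm2, Rfc2 and Rpa2 and lower that of Pcna. For Pold1 the rounded values do not settle it. All 39 have a position in the GENCODE annotation of GRCm38, among them Orc6 at chr8:85299632-85308278 (plus strand), Mcm6 at chr1:128331590-128359664 (minus strand), Prim1 at chr10:128015168-128030037 (plus strand), Rfc4 at chr16:23113943-23127737 (minus strand), Rrm1 at chr7:102441695-102469771 (plus strand), Rrm2 at chr12:24708241-24714146 (plus strand), E2f1 at chr2:154559407-154569892 (minus strand) and Slbp at chr5:33634952-33652574 (minus strand). In that annotation, 19 members overlap another gene, 16 of them on the opposite strand, and the strand setting of the counting is not given in the sources used here. Of the 19 members called higher in glioma cells, Orc6 (with Vps35), Mcm7 (with Cops6 and Ap4m1), Cdc45 (with Ufd1), Pola1 (with Gm14780), Pole (with Gm15792), Rfc4 (with Eif4a2) and Rfc5 (with Wsb2) overlap a gene on the opposite strand, and Mcm7, Pola1, Pole, Rrm1 and Chaf1b one on the same strand.

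**Figure D1:**
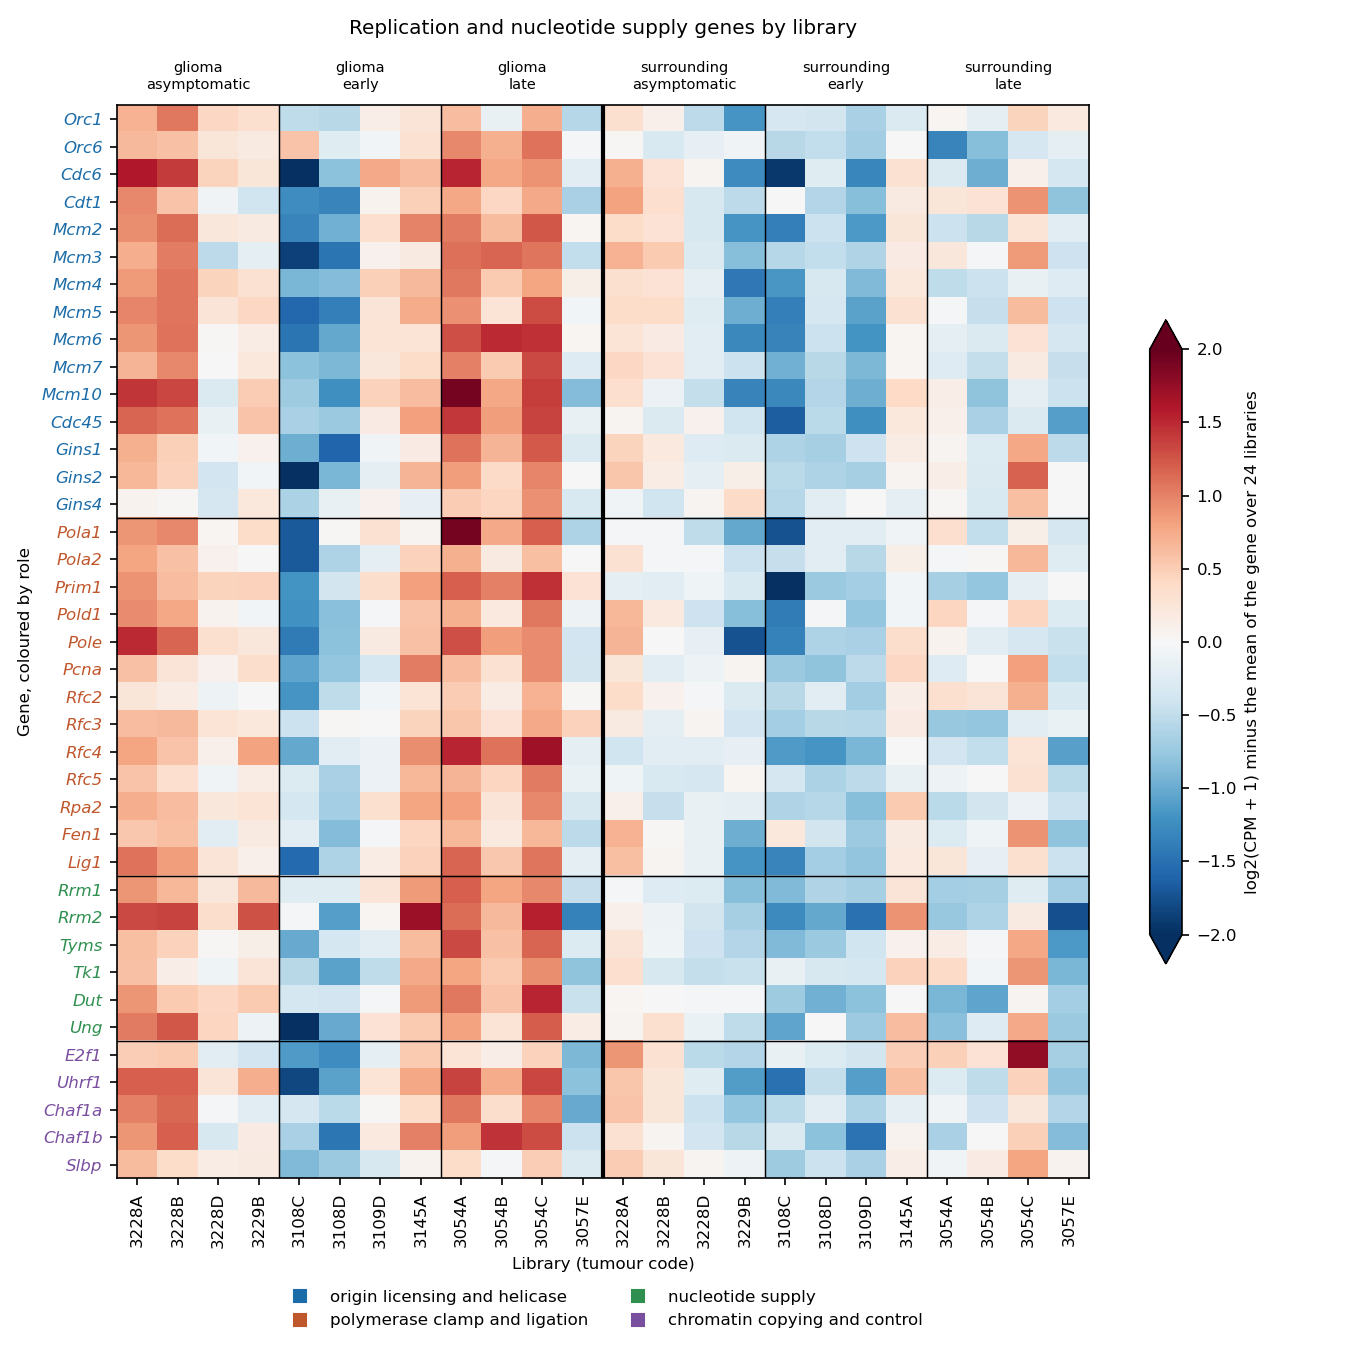
Levels of the 39 genes (rows, grouped by role) in 24 libraries (columns, glioma then surrounding, by stage), as log2(CPM + 1) minus the mean of that gene over all libraries, with colours ending at 2 units on either side. Among glioma libraries the columns of 3108C, 3108D and 3057E are mostly blue, with mean log2(CPM + 1) over the 39 genes of 3.48, 3.71 and 4.17.

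Start sites of 33 members could be matched to RefSeq promoter windows of GRCm38.p6, each running from 250 bases before to 50 bases after the start. Windows were scanned on both strands for E2F-type words (TTTCCCGC, TTTCGCGC, TTTGCCGC and TTTGGCGC), for CCAAT and for the CHR-type words TTTGAA and TTCGAA. No E2F-type word contains either of the other types. An E2F-type word was found for 12 of the 33 members with a window (36.4%), against 704 of 27025 genes with a window (2.61%). CCAAT was found for 19 of 33 (57.6%, against 41.1% of all genes with a window) and a CHR-type word for 5 of 33 (15.2%, against 21.7%). Some genes have windows at several starts. The segments printed with an E2F-type word before a start are those of helicase genes, a licensing factor, a polymerase and a chromatin copying gene. Those of both ribonucleotide reductase genes hold CCAAT. For Cdc6 and Uhrf1 the printed segment lies inside the GENCODE span of the gene, before a RefSeq start further in. Capitals mark the word for which a run is printed, and each run reads 5′ to 3′ on the strand of the gene. Further scanned words in a run are not marked, as in those of Mcm6 and Mcm5. Of these genes Mcm6, Cdc6, Pola1, Rrm1 and Rrm2 were called higher in glioma cells and Mcm5 and Uhrf1 were not.
Mcm6, word 110 bases before the start, chr1:128359786-128359837, minus strand: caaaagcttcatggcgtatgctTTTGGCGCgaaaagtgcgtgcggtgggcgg
Mcm6, word 47 bases before the start, chr1:128359723-128359774, minus strand: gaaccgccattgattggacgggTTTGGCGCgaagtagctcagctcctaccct
Mcm5, chr8:75109334-75109385, plus strand: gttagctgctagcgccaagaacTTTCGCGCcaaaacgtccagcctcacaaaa
Cdc6, chr11:98907991-98908042, plus strand: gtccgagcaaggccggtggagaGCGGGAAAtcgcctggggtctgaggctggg
Pola1, chrX:93632264-93632315, minus strand: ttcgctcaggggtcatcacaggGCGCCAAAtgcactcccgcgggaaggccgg
Uhrf1, chr17:56304106-56304157, plus strand: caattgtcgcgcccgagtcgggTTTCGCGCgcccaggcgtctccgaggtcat
Rrm1, chr7:102441628-102441676, plus strand: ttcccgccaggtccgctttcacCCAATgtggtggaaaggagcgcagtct
Rrm2, chr12:24708182-24708230, plus strand: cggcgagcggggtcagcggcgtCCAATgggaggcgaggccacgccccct
Among members with an E2F-type word in a window, 5 of 12 were called higher in glioma cells, and among those with a window and no such word, 12 of 21. A word is a match of letters, not a binding site, and a window without one says only that these letters are not in it.

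Many replication genes were higher in glioma than in surrounding cells. Of the 39 genes, 19 were higher in glioma cells (48.7%) and 0 lower, against 22.0% of all 18810 genes tested called higher (edgeR quasi-likelihood test, Benjamini-Hochberg adjusted p under 0.05, 12 libraries against 12). All 39 passed the filter on low counts. The median log2 fold change of the 39 was 0.61, against 0.06 over all genes tested. The estimate was above 0 for 37 of 39, and E2f1 and Slbp were the exceptions. Helicase and licensing genes gave 8 of 15, polymerase and clamp genes 7 of 13, nucleotide supply 3 of 6, and chromatin and control genes 1 of 5. With the tumour as a replicate block, 26 of 39 were called against 28.6% of all genes, with no member lost. The gained members were Mcm5, Pold1, Pcna, Lig1, Tyms, Uhrf1 and Chaf1a. Without tumours 3108D and 3109D, 10 remained (25.6%, against 13.3% of all genes): Orc6, Mcm4, Cdc45, Prim1, Rfc3, Rfc4, Rpa2, Rrm1, Rrm2 and Dut. These 10 were called in every setting that was run for this comparison. Other cells move with the contrast: all 14 microglia markers and all 10 endothelial markers tested were lower in glioma cells and 9 of 12 OPC markers higher, and the part of this cell makeup in the result was not tested.

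**Figure D2:**
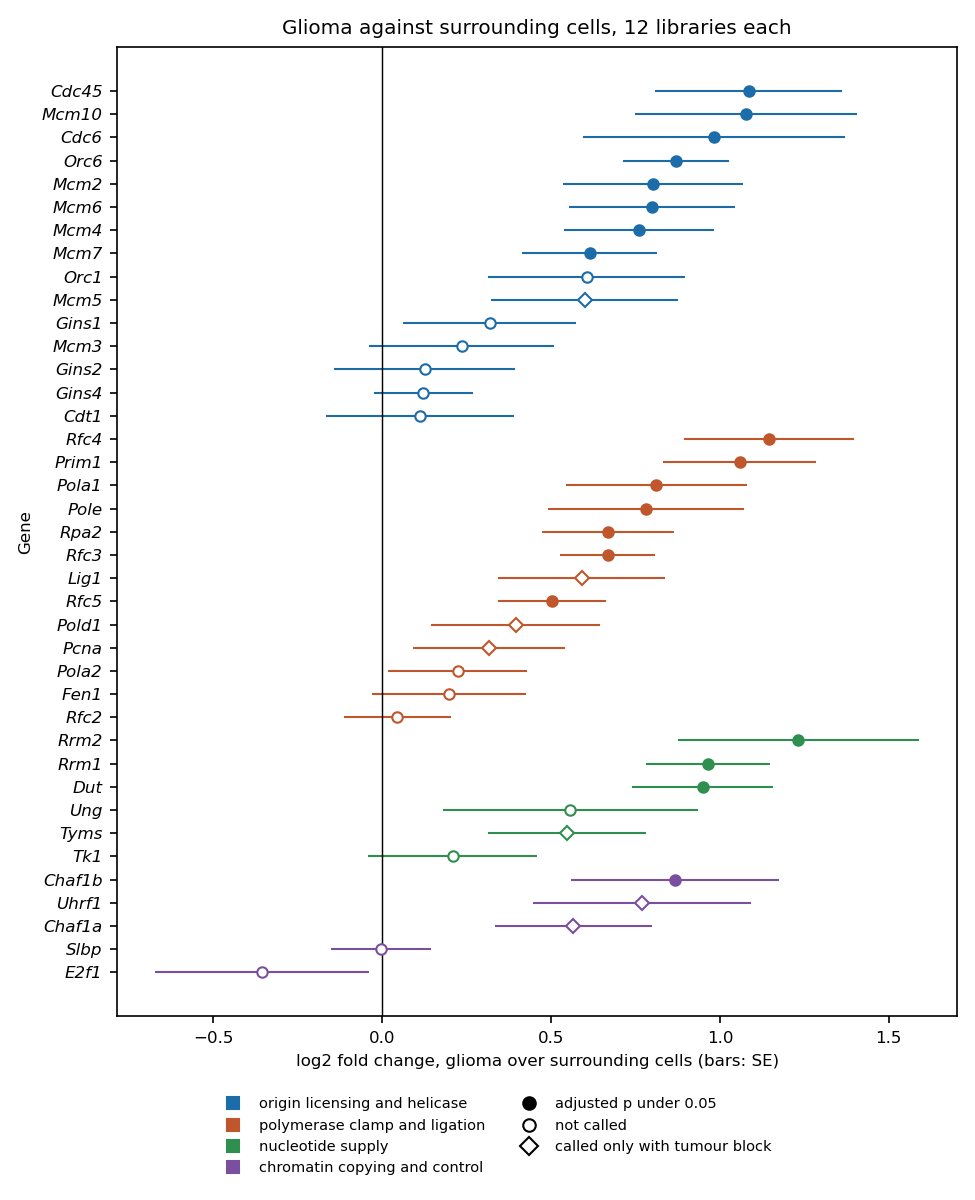
Log2 fold change of glioma over surrounding cells for the 39 genes, with bars of 1 SE, from 12 libraries each, coloured by role. Filled circles are genes called at an adjusted p under 0.05, diamonds those called with the tumour block and not in the fit without it. Rrm2 lies highest at 1.23 and E2f1 lowest at -0.35.

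In the sentences that follow, the values of a group are in the order 3228A, 3228B, 3228D, 3229B for asymptomatic, 3108C, 3108D, 3109D, 3145A for early and 3054A, 3054B, 3054C, 3057E for late tumours. Orc6, a subunit of the origin recognition complex, stood in glioma cells at 32.3, 30.7, 24.1 and 23.1 CPM in asymptomatic, 30.6, 16.9, 19.5 and 25.3 CPM in early and 40.3, 33.8, 44.0 and 20.03 CPM in late tumours. In surrounding cells Orc6 stood at 20.5, 16.1, 18.1 and 19.3 CPM in asymptomatic, 13.4, 14.2, 12.1 and 20.1 CPM in early and 7.55, 10.7, 15.9 and 17.7 CPM in late tumours. Glioma exceeded surrounding cells in 12 of 12 tumours, and in the asymptomatic and late groups the ranges did not overlap. The log2 fold change was 0.87 ± 0.16 (SE, adjusted p = 0.000100). Orc1, the largest subunit of the same complex, stood in glioma cells at 3.99, 5.38, 3.11 and 2.85 CPM in asymptomatic, 1.16, 1.09, 2.37 and 2.697 CPM in early and 3.72, 1.79, 4.09 and 1.08 CPM in late tumours. In surrounding cells Orc1 stood at 2.85, 2.30, 1.15 and 0.361 CPM in asymptomatic, 1.44, 1.39, 0.968 and 1.51 CPM in early and 2.16, 1.70, 3.19 and 2.53 CPM in late tumours. The populations overlapped, 9 of 12 tumours had the higher value in glioma cells, and Orc1 was not called (0.61 ± 0.29, adjusted p = 0.0938).

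Cdc6, the loader that joins the origin complex to the helicase, stood in glioma cells at 25.6, 22.3, 11.1 and 9.49 CPM in asymptomatic, 0.712, 3.97, 14.0 and 12.6 CPM in early and 24.3, 14.1, 15.4 and 6.62 CPM in late tumours. In surrounding cells Cdc6 stood at 13.5, 9.77, 8.20 and 2.71 CPM in asymptomatic, 1.32, 6.44, 2.55 and 9.88 CPM in early and 6.23, 3.50, 8.45 and 5.94 CPM in late tumours. Library 3108C was the lowest in both populations, the populations overlapped, and the log2 fold change was 0.98 ± 0.39 (adjusted p = 0.0421). Cdt1, the partner of Cdc6 in loading, ranged from 4.37 to 25.1 CPM in glioma cells with a log2 fold change of 0.11 ± 0.28, and was not called.

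The 6 subunits of the Mcm2 to Mcm7 ring did not give 1 result. Mcm2 stood in glioma cells at 107, 123, 65.6 and 63.3 CPM in asymptomatic, 21.9, 28.3, 70.9 and 112 CPM in early and 116, 87.7, 134 and 57.8 CPM in late tumours. In surrounding cells Mcm2 stood at 72.3, 68.9, 44.4 and 24.2 CPM in asymptomatic, 20.96, 41.5, 24.6 and 66.3 CPM in early and 41.5, 37.9, 67.7 and 47.7 CPM in late tumours. As labelled, Mcm2 was higher in glioma cells in 11 of 12 tumours (0.80 ± 0.27, adjusted p = 0.0170), with 3108D the exception. That exception rests on the labelled codes. With the surrounding cells of 3108D and 3109D exchanged, the values are 28.3 against 24.6 CPM and 70.9 against 41.5 CPM. Mcm6 stood in glioma cells at 147, 170, 80.8 and 87.8 CPM in asymptomatic, 28.0, 38.7, 95.6 and 96.4 CPM in early and 194, 225, 219 and 81.2 CPM in late tumours. In surrounding cells Mcm6 stood at 96.5, 89.1, 68.5 and 32.0 CPM in asymptomatic, 30.7, 58.8, 33.9 and 81.2 CPM in early and 69.7, 64.5, 97.1 and 62.8 CPM in late tumours. The 3 late tumours 3054A, 3054B and 3054C had the 3 highest values of all 24 libraries, and the log2 fold change was 0.80 ± 0.25 (adjusted p = 0.0108). Mcm7 stood in glioma cells at 99.9, 121, 61.8 and 71.4 CPM in asymptomatic, 34.5, 32.8, 72.6 and 80.4 CPM in early and 126, 89.2, 156 and 51.6 CPM in late tumours. In surrounding cells Mcm7 stood at 82.8, 75.9, 53.4 and 45.9 CPM in asymptomatic, 31.1, 41.9, 32.7 and 63.4 CPM in early and 51.3, 44.3, 70.3 and 44.9 CPM in late tumours. The groups overlapped at each stage and the log2 fold change was 0.61 ± 0.20 (adjusted p = 0.0154). Mcm4 was called too (0.76 ± 0.22, adjusted p = 0.00769, 40.2 to 161 CPM in glioma cells), and Mcm5 was not without the tumour block (0.60 ± 0.28, adjusted p = 0.0812, and 0.0164 with it). Mcm3 stood in glioma cells at 101, 124, 41.3 and 52.4 CPM in asymptomatic, 15.8, 21.3, 63.7 and 68.0 CPM in early and 131, 135, 127 and 42.5 CPM in late tumours. In surrounding cells Mcm3 stood at 97.8, 86.9, 48.9 and 33.0 CPM in asymptomatic, 40.0, 42.5, 39.2 and 67.7 CPM in early and 70.4, 59.0, 110 and 45.005 CPM in late tumours. The populations overlapped at each stage, and the log2 fold change of 0.24 ± 0.27 was not called (adjusted p = 0.506). Whether Mcm3 differed from the other subunits was not tested.

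Of the 5 genes that activate the ring, 2 were called. Cdc45, which joins the ring at firing, ranged from 4.67 to 24.2 CPM in glioma and was called at 1.09 ± 0.28 (adjusted p = 0.00287). Mcm10, needed to start unwinding, ranged from 4.57 to 47.8 CPM and was called at 1.08 ± 0.33 (adjusted p = 0.0103). None of the 3 GINS genes passed the test. Gins1 stood in glioma cells at 10.8, 8.99, 5.97 and 6.64 CPM in asymptomatic, 2.67, 1.39, 5.84 and 7.04 CPM in early and 14.3, 10.6, 15.9 and 4.88 CPM in late tumours. In surrounding cells Gins1 stood at 8.79, 7.23, 5.04 and 4.87 CPM in asymptomatic, 3.71, 3.57, 4.400 and 7.03 CPM in early and 6.47, 4.97, 11.3 and 4.01 CPM in late tumours. The log2 fold change was 0.32 ± 0.26. Gins2 stood in glioma cells at 28.4, 24.7, 13.3 and 17.0 CPM in asymptomatic, 2.58, 8.94, 15.4 and 28.9 CPM in early and 32.2, 23.3, 35.8 and 17.5 CPM in late tumours. In surrounding cells Gins2 stood at 26.4, 19.8, 15.3 and 19.3 CPM in asymptomatic, 11.9, 11.1, 10.8 and 18.3 CPM in early and 19.4, 14.2, 41.4 and 17.8 CPM in late tumours. It was higher in glioma cells in 6 of 12 tumours, with a log2 fold change of 0.13 ± 0.27. Gins4 stood in glioma cells at 22.2, 21.5, 16.4 and 24.4 CPM in asymptomatic, 13.3, 19.0, 22.3 and 18.6 CPM in early and 30.3, 28.8, 40.6 and 16.8 CPM in late tumours. In surrounding cells Gins4 stood at 19.9, 15.8, 21.8 and 27.6 CPM in asymptomatic, 13.9, 18.1, 21.2 and 18.2 CPM in early and 21.3, 16.8, 32.6 and 21.1 CPM in late tumours. Its spread within each population was the narrowest of the 3, and the log2 fold change was 0.12 ± 0.15.

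Of the polymerase alpha and primase genes, Prim1, the catalytic primase subunit, stood in glioma cells at 38.4, 31.4, 27.6 and 28.0 CPM in asymptomatic, 8.19, 15.3, 25.8 and 36.1 CPM in early and 47.5, 41.6, 56.8 and 24.7 CPM in late tumours. In surrounding cells Prim1 stood at 17.6, 17.2, 18.8 and 16.1 CPM in asymptomatic, 3.95, 11.6, 12.2 and 19.3 CPM in early and 12.3, 11.3, 17.6 and 20.1 CPM in late tumours. All 12 tumours had more in glioma cells, the late and asymptomatic groups did not overlap, and the log2 fold change was 1.06 ± 0.23 (adjusted p = 0.000620). Pola1, the catalytic subunit of polymerase alpha, stood in glioma cells at 50.7, 53.4, 27.9 and 35.2 CPM in asymptomatic, 7.74, 27.5, 33.8 and 28.3 CPM in early and 105, 46.5, 63.6 and 17.3 CPM in late tumours. In surrounding cells Pola1 stood at 26.7, 26.6, 18.6 and 12.8 CPM in asymptomatic, 7.42, 22.9, 23.3 and 25.6 CPM in early and 34.4, 18.9, 29.3 and 21.2 CPM in late tumours. Tumour 3057E alone had less Pola1 in glioma than in surrounding cells, and the log2 fold change was 0.81 ± 0.27 (adjusted p = 0.0169). Pola2, the regulatory subunit, stood in glioma cells at 23.7, 20.4, 14.2 and 13.2 CPM in asymptomatic, 3.47, 8.35, 11.6 and 18.8 CPM in early and 22.4, 15.2, 20.8 and 13.3 CPM in late tumours. In surrounding cells Pola2 stood at 16.7, 12.9, 13.0 and 9.66 CPM in asymptomatic, 9.46, 11.2, 8.71 and 14.5 CPM in early and 12.9, 13.6, 21.7 and 11.1 CPM in late tumours. Its log2 fold change of 0.22 ± 0.21 was not called. Pole, the leading strand polymerase, stood in glioma cells at 59.6, 47.4, 25.9 and 24.1 CPM in asymptomatic, 7.03, 11.1, 23.3 and 31.2 CPM in early and 51.3, 37.3, 40.5 and 15.5 CPM in late tumours. In surrounding cells Pole stood at 33.5, 20.5, 18.3 and 5.42 CPM in asymptomatic, 7.42, 13.1, 12.8 and 26.5 CPM in early and 21.5, 17.6, 16.1 and 14.8 CPM in late tumours. The log2 fold change was 0.78 ± 0.29 (adjusted p = 0.0315), with overlap at every stage. Pold1, the lagging strand polymerase, stood in glioma cells at 25.3, 22.3, 13.4 and 12.2 CPM in asymptomatic, 4.89, 6.66, 12.3 and 19.1 CPM in early and 21.4, 14.7, 27.4 and 11.7 CPM in late tumours. In surrounding cells Pold1 stood at 20.7, 14.7, 9.28 and 6.59 CPM in asymptomatic, 4.19, 12.3, 6.95 and 12.1 CPM in early and 17.4, 12.2, 17.3 and 10.2 CPM in late tumours. It was called with the tumour block and not in the fit without it (adjusted p = 0.0344 against 0.205), and 11 of 12 tumours had more in glioma cells.

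Of the Pcna clamp and the 4 loader genes, 3 were called. Pcna stood in glioma cells at 222, 178, 157 and 189 CPM in asymptomatic, 70.8, 86.3, 115 and 301 CPM in early and 227, 183, 286 and 114 CPM in late tumours. In surrounding cells Pcna stood at 176, 127, 139 and 154 CPM in asymptomatic, 88.3, 84.2, 103 and 197 CPM in early and 124, 147, 263 and 105 CPM in late tumours. As labelled, glioma cells had more in 11 of 12 tumours, with a log2 fold change of 0.32 ± 0.23 (adjusted p = 0.263, and 0.0327 with the tumour block). With the surrounding cells of 3108D and 3109D exchanged, Pcna is 86.3 against 103 CPM and 115 against 84.2 CPM. A pseudogene, Pcna-ps2, carried counts equal to 6.74% of those of Pcna, so reads may be split between them. Rfc4, a subunit of the loader, stood in glioma cells at 18.9, 16.0, 11.2 and 19.0 CPM in asymptomatic, 4.63, 8.74, 9.55 and 20.8 CPM in early and 31.9, 23.3, 36.1 and 9.02 CPM in late tumours. In surrounding cells Rfc4 stood at 7.70, 8.74, 8.85 and 9.21 CPM in asymptomatic, 4.19, 4.06, 5.10 and 10.3 CPM in early and 7.79, 7.12, 12.8 and 4.38 CPM in late tumours. Every tumour had more in glioma cells, and the log2 fold change was 1.15 ± 0.25 (adjusted p = 0.000780). Rfc3 stood in glioma cells at 25.9, 26.5, 20.3 and 19.4 CPM in asymptomatic, 12.0, 16.9, 16.6 and 23.1 CPM in early and 24.8, 20.4, 28.9 and 23.3 CPM in late tumours. In surrounding cells Rfc3 stood at 19.0, 14.5, 17.3 and 12.5 CPM in asymptomatic, 9.94, 10.99, 10.9 and 18.8 CPM in early and 9.35, 9.27, 14.1 and 15.1 CPM in late tumours. Glioma exceeded surrounding cells in all 12 tumours and late groups did not overlap (0.67 ± 0.14, adjusted p = 0.000550). Rfc2, another loader subunit, stood in glioma cells at 39.03, 36.4, 30.6 and 32.7 CPM in asymptomatic, 14.0, 22.9, 31.7 and 40.1 CPM in early and 46.9, 36.3, 54.0 and 33.5 CPM in late tumours. In surrounding cells Rfc2 stood at 42.5, 35.1, 32.1 and 26.8 CPM in asymptomatic, 22.03, 28.1, 19.8 and 36.0 CPM in early and 41.4, 39.7, 54.6 and 26.4 CPM in late tumours. The log2 fold change was 0.05 ± 0.16, and 6 of 12 tumours had more in glioma cells. Rfc5 was called at 0.50 ± 0.16 (adjusted p = 0.0135, 12.4 to 42.4 CPM in glioma cells).

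Rpa2, a subunit of the protein that coats single-stranded DNA, stood in glioma cells at 31.7, 29.4, 22.1 and 22.7 CPM in asymptomatic, 14.5, 11.3, 23.6 and 33.0 CPM in early and 34.0, 22.6, 37.2 and 14.7 CPM in late tumours. In surrounding cells Rpa2 stood at 20.1, 13.3, 16.7 and 16.2 CPM in asymptomatic, 12.0, 12.3, 9.94 and 27.4 CPM in early and 12.6, 14.2, 17.2 and 13.7 CPM in late tumours. The asymptomatic groups did not overlap, 11 of 12 tumours as labelled had more in glioma cells, and the log2 fold change was 0.67 ± 0.20 (adjusted p = 0.00786). With the surrounding cells of 3108D and 3109D exchanged, Rpa2 is 11.3 against 9.94 CPM and 23.6 against 12.3 CPM. Genes of lagging strand processing were not called: Fen1, the flap nuclease, had a log2 fold change of 0.20 ± 0.23, and Lig1, the ligase, 0.59 ± 0.25 (adjusted p = 0.0547, and 0.00155 with the tumour block).

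Nucleotide supply was led by ribonucleotide reductase, which makes deoxynucleotides from ribonucleotides. Rrm1, its large subunit, stood in glioma cells at 237, 202, 149 and 200 CPM in asymptomatic, 107, 108, 152 and 231 CPM in early and 293, 222, 249 and 92.2 CPM in late tumours. In surrounding cells Rrm1 stood at 126, 106, 105 and 69.7 CPM in asymptomatic, 68.4, 83.7, 80.3 and 153 CPM in early and 79.3, 80.1, 107 and 78.9 CPM in late tumours. All 12 tumours had more in glioma cells, and the log2 fold change was 0.97 ± 0.18 (adjusted p = 0.000181). Rrm2, the small subunit, which accumulates in S phase, stood in glioma cells at 120, 123, 60.9 and 116 CPM in asymptomatic, 46.7, 21.7, 49.2 and 158 CPM in early and 105, 75.2, 142 and 18.04 CPM in late tumours. In surrounding cells Rrm2 stood at 51.5, 44.5, 36.6 and 29.8 CPM in asymptomatic, 19.2, 22.9, 16.4 and 90.1 CPM in early and 27.9, 30.6, 54.0 and 13.4 CPM in late tumours. Its log2 fold change, 1.23 ± 0.36 (adjusted p = 0.00728), was the largest estimate of the 39, and 3057E was the lowest library in each population. Dut, the dUTPase that keeps uracil out of DNA, stood in glioma cells at 35.3, 27.5, 25.3 and 27.5 CPM in asymptomatic, 14.4, 14.2, 18.1 and 34.5 CPM in early and 40.0, 28.4, 55.5 and 13.5 CPM in late tumours. In surrounding cells Dut stood at 19.3, 18.8, 18.1 and 18.4 CPM in asymptomatic, 11.02, 9.11, 10.2 and 18.8 CPM in early and 9.47, 8.48, 19.5 and 11.4 CPM in late tumours. It was higher in glioma cells in 12 of 12 tumours (0.95 ± 0.21, adjusted p = 0.000767).

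Tyms, Tk1 and Ung were not called in the fit without the tumour block. Tyms, which makes thymidylate, stood in glioma cells at 24.7, 22.3, 16.2 and 17.4 CPM in asymptomatic, 7.39, 12.3, 13.4 and 25.3 CPM in early and 41.4, 24.5, 36.9 and 13.1 CPM in late tumours. In surrounding cells Tyms stood at 19.3, 14.9, 11.7 and 10.3 CPM in asymptomatic, 8.14, 9.11, 11.8 and 16.9 CPM in early and 17.9, 15.5, 27.8 and 6.68 CPM in late tumours. It was called with the tumour block and not in the fit without it (0.55 ± 0.23, adjusted p = 0.0608, and 0.000676 with the block). Tk1, the salvage kinase for thymidine, stood in glioma cells at 19.8, 14.2, 12.0 and 15.6 CPM in asymptomatic, 8.45, 5.56, 8.76 and 22.3 CPM in early and 22.8, 19.0, 25.4 and 6.95 CPM in late tumours. In surrounding cells Tk1 stood at 16.5, 10.1, 8.92 and 9.12 CPM in asymptomatic, 11.5, 10.1, 9.86 and 18.2 CPM in early and 17.1, 12.3, 24.7 and 6.39 CPM in late tumours. The populations overlapped at every stage and the log2 fold change was 0.21 ± 0.25. Ung, the uracil glycosylase, stood in glioma cells at 11.4, 13.3, 7.09 and 4.60 CPM in asymptomatic, 0.178, 1.99, 6.39 and 7.70 CPM in early and 9.55, 6.26, 13.0 and 5.71 CPM in late tumours. In surrounding cells Ung stood at 5.28, 6.51, 4.53 and 3.25 CPM in asymptomatic, 1.92, 5.05, 2.64 and 8.28 CPM in early and 2.40, 4.07, 9.22 and 2.60 CPM in late tumours. Its log2 fold change of 0.56 ± 0.38 was not called, and no fold against 3108C is given since few reads lie behind that value.

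Chromatin and control genes were mixed. Chaf1b, a subunit of the histone chaperone that works behind the fork, was called at 0.87 ± 0.31 (adjusted p = 0.0246, 3.08 to 29.4 CPM in glioma cells). Chaf1a (0.57 ± 0.23, adjusted p = 0.0510) and Uhrf1, which carries DNA methylation through replication (0.77 ± 0.32, adjusted p = 0.0548), were called with the tumour block and not in the fit without it. Slbp, the stem-loop binder of histone mRNA, stood in glioma cells at 50.2, 41.2, 35.3 and 36.3 CPM in asymptomatic, 16.7, 18.7, 25.4 and 33.4 CPM in early and 41.4, 30.9, 45.2 and 25.98 CPM in late tumours. In surrounding cells Slbp stood at 45.6, 37.7, 33.3 and 29.6 CPM in asymptomatic, 19.2, 23.5, 19.98 and 35.2 CPM in early and 30.3, 35.6, 55.9 and 33.4 CPM in late tumours. Its log2 fold change was -0.0027 ± 0.15, the nearest to 0 of the 39. E2f1, an activator of many of the genes named here, stood in glioma cells at 8.95, 9.15, 5.10 and 4.45 CPM in asymptomatic, 2.22, 1.99, 5.29 and 9.21 CPM in early and 7.60, 6.80, 8.72 and 2.81 CPM in late tumours. In surrounding cells E2f1 stood at 12.1, 7.78, 3.89 and 3.701 CPM in asymptomatic, 5.39, 4.85, 4.49 and 8.99 CPM in early and 8.87, 7.69, 23.4 and 3.49 CPM in late tumours. It was the member with the lowest estimate (-0.35 ± 0.32), was higher in glioma cells in 5 of 12 tumours, and was not called (adjusted p = 0.378). The highest value of all 24 was 23.4 CPM, in the surrounding cells of 3054C.

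**Figure D3:**
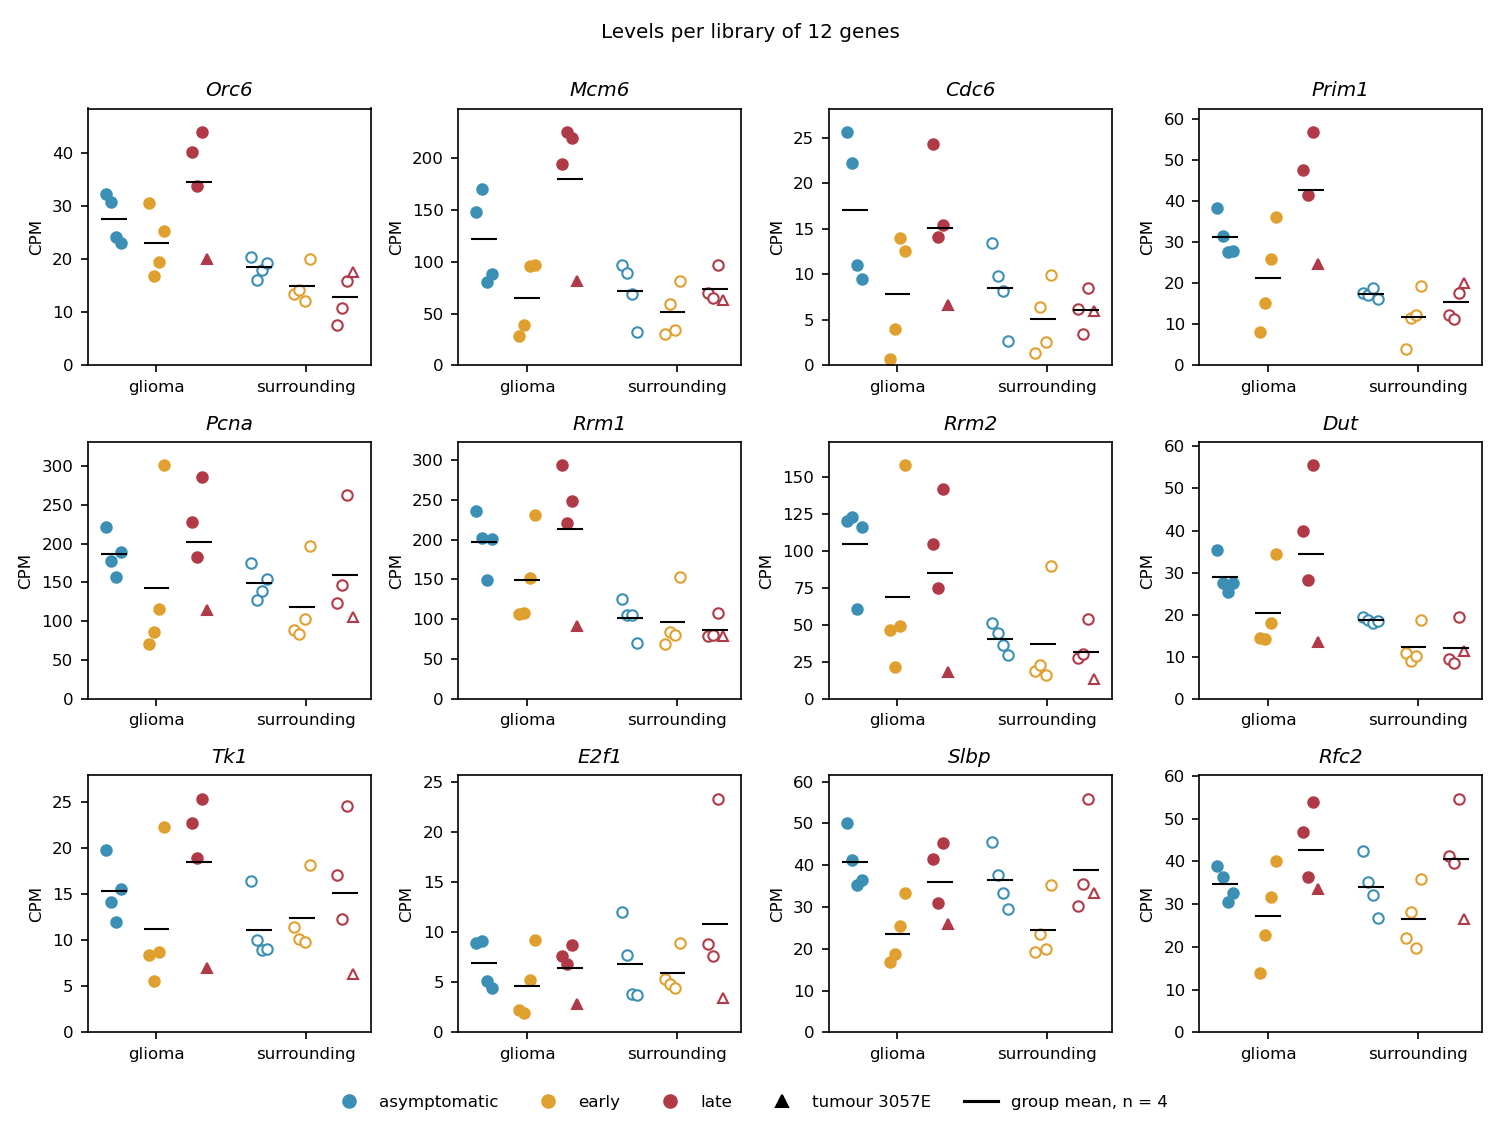
CPM of 12 of the genes in each of 24 libraries on linear axes from 0, glioma filled and surrounding open, coloured by stage, with group means (n = 4) as lines and tumour 3057E as triangles. Orc6, Prim1, Rrm1 and Dut are higher in glioma cells in all 12 tumours (Orc6 20.03 against 17.7 CPM in 3057E), while E2f1, Slbp and Rfc2 points of the populations overlap.

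By stage, the contrast of glioma with surrounding cells was called for 12 members in late tumours, 1 in asymptomatic and 0 in early ones. In late tumours Orc6 (1.41 ± 0.27), Rfc3 (1.02 ± 0.25), Rrm1 (1.31 ± 0.32), Dut (1.49 ± 0.36), Rfc4 (1.64 ± 0.44), Prim1 (1.47 ± 0.40), Cdc45 (1.54 ± 0.49), Mcm6, Mcm7, Rpa2, Mcm10 and Mcm4 were higher. That is 30.8% of the 39 against 15.4% of all genes. By edgeR the adjusted p was near the threshold for Rpa2 (0.0417), Mcm10 (0.0484) and Mcm4 (0.0488). Over 21 alternative settings Orc6, Rfc3, Rrm1, Dut, Rfc4 and Prim1 were called in all. Cdc45 was called in 19, Mcm6 in 18, Mcm7 in 16, Rpa2 in 11, Mcm10 in 9 and Mcm4 in 8. Leaving out 1 late tumour gave 7 calls without 3054A (7.53% of all genes were then called higher), 6 without 3054B (7.14%), 6 without 3054C (8.50%) and 12 without 3057E (19.5%), so the share of all genes moved with it. Without both 3108D and 3109D, 8 were called in late (10.5% of all genes), 0 in asymptomatic (0.509%) and 0 in early tumours (0.0749%, with a median estimate of 0.25 against 0.34 with both). With the tumour block, 23 were called (22.8% of all genes). In asymptomatic tumours Rrm1 alone was called (0.96 ± 0.32, adjusted p = 0.0471, against 1.30% of all genes higher), and no member was called once 3054A, 3054B, 3054C, 3108D, 3109D or any 1 of the 4 asymptomatic tumours was left out. With the block 10 were called (4.39% of all genes): Mcm4, Pola1, Prim1, Pole, Rfc3, Rfc4, Lig1, Rrm1, Rrm2 and Tyms. In early tumours edgeR called 0 of 39 (1.06% of all genes were called higher), 2 passed an unadjusted p under 0.05, and DESeq2 and limma voom called 0. With the block Prim1 (0.85 ± 0.25) and Rfc4 (0.80 ± 0.23) were called (2.80% of all genes). Whether the contrast itself differed between stages was tested as an interaction, described with the stages.

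Within glioma cells the values spread widely between tumours of 1 stage. Over the 39 genes the mean log2(CPM + 1) was 3.48 in 3108C, 3.71 in 3108D and 4.17 in 3057E, and 4.57 to 5.55 in the other 9. The lowest glioma library of all 39 genes was 1 of these 3: 3108C for 22, 3108D for 12 and 3057E for 5. For 28 genes they were the lowest 3 libraries together. The highest library was 3054C for 16 genes, 3054A for 8 and 3228A for 5. Sums over the 39 ran from 651 CPM in 3108C to 2651 CPM in 3054C. Ratios of highest to lowest library ranged from 2.40 for Rfc3 to 13.9 for Gins2 among genes with more than 1 CPM in every glioma library. Early tumour 3109D lay at the low end of those 9 (4.57), below the glioma median for 36 of the 39 genes, as was asymptomatic 3228D. The early group thus held both the lowest values and, in 3145A alone (5.07), values near the highest. Tumour 3145A had the top glioma value of Pcna, Rrm2 and E2f1.

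Replication and mitosis genes did not rank the low libraries alike. Over 26 mitosis genes the mean log2(CPM + 1) was lowest in glioma 3057E, at 3.91, and stood at 5.23 in 3108C and 4.81 in 3108D. Mki67, a marker of cycling cells, was 85.9 CPM in 3057E, 295 CPM in 3108C, 275 CPM in 3108D and 1762 CPM in 3054A. Replication minus mitosis came to 0.26 in glioma 3057E and to values from -1.75 (3108C) to -0.39 (3109D) in the other 11 glioma libraries. Surrounding cells gave -0.95 to 0.11. Tumour 3108C thus had the lowest replication mean with a mitosis mean inside the range of the other tumours. The cause was not tested.

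**Figure D4:**
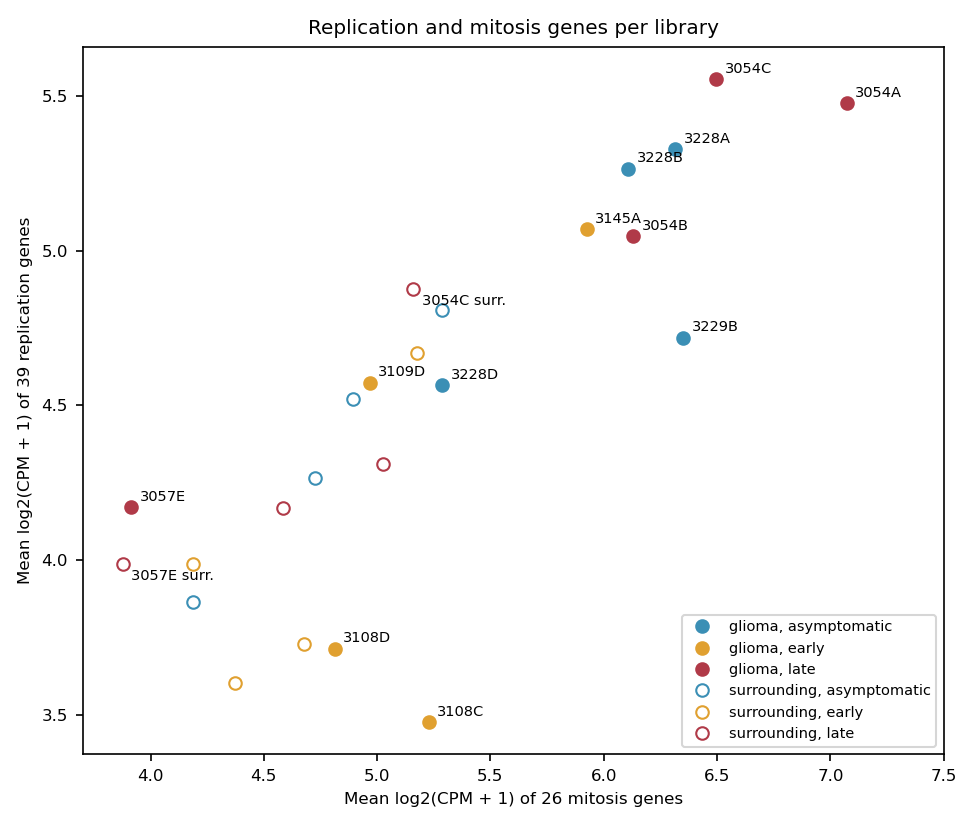
Mean log2(CPM + 1) of the 39 replication genes (vertical) against that of 26 mitosis genes (horizontal) in the 24 libraries, glioma filled, surrounding open and coloured by stage. Glioma 3057E lies at 3.91 on the mitosis axis and 4.17 on the replication axis, and glioma 3108C at 5.23 and 3.48, below the other glioma libraries.

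Late against early symptomatic glioma cells gave an estimate above 0 for all 39 members, with a median of 0.76 against 0.04 over all 16494 genes tested, and no call: edgeR called 0 of 39 (0.273% of all genes were called), 15 passed an unadjusted p under 0.05, DESeq2 called 2 (Mcm6 and Gins1, against 3.38% of all genes higher) and limma voom with sample weights 19 (against 8.49%). The smallest adjusted p was 0.124, of Mcm6 (1.47 ± 0.44). Next came Gins1 (1.42 ± 0.47), Gins4 (0.67 ± 0.25) and Prim1 (0.99 ± 0.37). The 4 late libraries split, as 3057E lay far below the other 3 for most genes. Without tumour 3057E, 3 late against 4 early libraries gave 10 calls, all higher (25.6%, against 8.58% of all genes): Mcm6 (1.69 ± 0.41), Gins1 (1.64 ± 0.43), Pola1 (1.54 ± 0.43), Rfc4 (1.45 ± 0.39), Tyms (1.20 ± 0.34), Prim1 (1.16 ± 0.36), Mcm7 (1.14 ± 0.34), Dut (0.99 ± 0.30), Gins4 (0.84 ± 0.21) and Orc6 (0.75 ± 0.21). Of the 28 genes with values listed by library, 11 had each of the 3 remaining late libraries above all 4 early ones: Mcm3, Mcm6, Mcm7, Gins1, Pola1, Prim1, Rfc4, Gins4, Orc6, Pole and Cdc6. The share of all genes with that pattern was not computed, and the listed genes include those picked for small p-values in these comparisons. The count is therefore no result about replication genes as a group. Rrm2 had the smallest estimate of the 39 (0.30 ± 0.62, and 0.62 without 3057E), as 3145A in the early group had the highest Rrm2 of all glioma libraries. The low values of 3057E go with a microglia marker sum of 2658 CPM, the red label and the shortest time of the late group (100 days). These cannot be told apart, as 3057E is the only such tumour. With the mean of the microglia markers as a term, edgeR called 0 of 39 (against 3.29% of all genes higher). The median over the 39 was 0.79 against 0.76 without the term. That marker mean was 6.92 log2 units in glioma 3057E and 1.98 to 2.73 in the other late glioma libraries. Among late tumours the term thus sets 3057E apart and cannot separate microglia content from that tumour. Without 3108D and 3109D edgeR called 0 (0.0113% of all genes higher), with a median of 0.65.

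**Figure D5:**
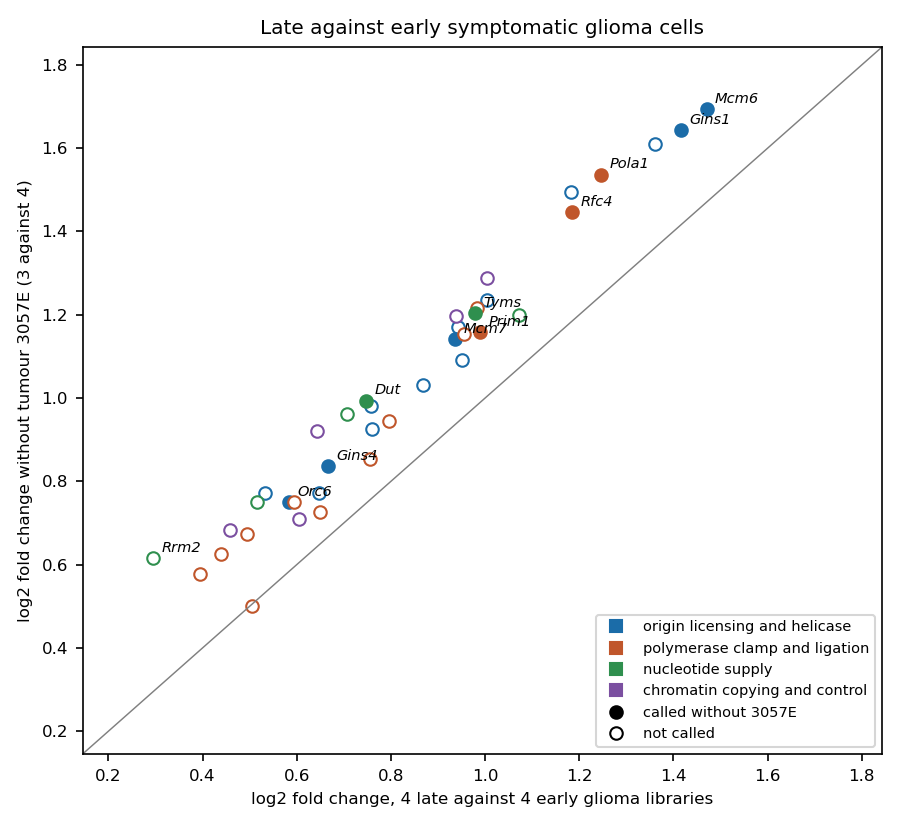
Log2 fold change of late over early glioma cells with all 8 libraries (horizontal) against that without tumour 3057E (vertical), 39 genes coloured by role, with filled points called without 3057E. Points lie above the diagonal, and Mcm6 moves from 1.47 to 1.69.

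Other stage comparisons in glioma cells gave no calls by edgeR or DESeq2. Late against asymptomatic, edgeR called 0 of 39 (0.158% of all genes) with 0 at an unadjusted p under 0.05. DESeq2 called 0 (2.23% of all genes higher and 1.28% lower) and limma voom 1 (Gins4, against 9.91% of all genes). The edgeR estimates ran from -0.51 to 0.63, with a median of 0.12. With the microglia term that median was -0.15. Early against asymptomatic, edgeR and DESeq2 and limma voom called 0 of 39, with 3 at an unadjusted p under 0.05 by edgeR. Of all genes, edgeR and DESeq2 called 0.00% and limma voom 0.00606% higher. All 39 estimates were below 0, from -1.13 to -0.20, with a median of -0.67 (-0.97 with the microglia term). Without 3108D and 3109D, which leaves 2 early libraries, 37 of 39 were below 0, the median was -0.52 and edgeR called 0 (0.00563% of all genes). Slbp (-0.78 ± 0.24), Pole (-1.09 ± 0.48) and Orc1 (-1.04 ± 0.48) had the smallest p-values. Slbp and Orc1 were the genes among those listed by library whose 4 asymptomatic values all exceeded the 4 early ones. How many of all genes do so was not computed. The 3 stage contrasts share their groups, so they are not independent.

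In surrounding cells no stage comparison was called by edgeR or DESeq2. Late against early, edgeR called 0 of 39 (1.48% of all genes). At an unadjusted p under 0.05 were 3 (Slbp at 0.63 ± 0.25, Gins2 at 0.80 ± 0.33 and Rfc2 at 0.58 ± 0.26). DESeq2 called 0 (5.39% of all genes higher and 1.14% lower) and limma voom 1 (Rfc2, against 14.9% of all genes). Late against asymptomatic, edgeR called 0 (0.00% of all genes), with 0 at an unadjusted p under 0.05. DESeq2 called 0 (3.99% of all genes higher and 1.70% lower). With limma voom 2 were lower (Orc6 and Dut, against 11.7% of all genes, and -0.52 ± 0.27 and -0.62 ± 0.30 by edgeR). Early against asymptomatic, each tool called 0, with 1 at an unadjusted p under 0.05 by edgeR (Slbp at -0.55 ± 0.25). Of all genes, edgeR and limma voom called 0.00%, and DESeq2 0.0341% higher and 0.0227% lower. Without 3108D and 3109D edgeR called 0 in each of the 3. The shares of all genes in those fits are not given, so that is no result about the members. Library 3054C was the highest surrounding library for 21 of 39 genes, and its surrounding cells held the lowest OPC marker sum of the 12 (769 CPM) and the highest microglia sum (22169 CPM), whose part was not tested. Library 3108C was the lowest surrounding library for 15.

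Stage effects were not shown to differ between the populations in fits on group means, which do not pair the populations of a tumour. With the tumour block the median interaction estimate of the 39 was 0.57 for late against early (0.52 without it). It was 0.16 for late against asymptomatic (0.19 without) and -0.38 for early against asymptomatic (-0.28 without). For late against early, the interaction gave 0 calls in edgeR (0.00% of all genes), with 0 at an unadjusted p under 0.05. DESeq2 called 0 (0.0372% of all genes higher and 0.191% lower) and limma voom 1 (Orc6, against 3.27%). For late against asymptomatic, edgeR called 0 (0.00% of all genes) with 1 at an unadjusted p under 0.05 (Orc6, 0.84 ± 0.38). DESeq2 called 0 (0.0372% of all genes higher and 0.0585% lower) and limma voom 1 (Orc6, against 3.72%). Without 3057E edgeR also called Orc6 (against 3.23%). For early against asymptomatic each tool called 0 (0.00% of all genes by edgeR and limma voom, and 0.00532% lower by DESeq2). By edgeR 0 passed an unadjusted p under 0.05. Without 3108D and 3109D each of the 3 interactions gave 0 calls in edgeR, with 0 at an unadjusted p under 0.05. The shares of all genes in those fits are not given, so that is no result about the members. With all tumours, Orc6 had the smallest edgeR p-value of the 39 in both late interactions. Glioma cells of 3054A held 40.3 CPM against 7.55 CPM in their surrounding cells, and those of 3228A 32.3 against 20.5 CPM.

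Further genes of these pathways were counted as lists in the contrast of glioma with surrounding cells, where 22.0% of all genes were called higher and 24.2% lower. Of 37 further replication genes 18 were higher and 2 lower (median 0.59): Prim2, the large primase subunit (1.03 ± 0.16), Orc2 (0.63 ± 0.10) and Top2a (1.37 ± 0.30) were higher, and Pold4, a small subunit of polymerase delta (-1.85 ± 0.24), and Dna2 (-1.09 ± 0.26) lower. Of 28 further nucleotide genes 12 were higher and 3 lower: Dtymk, which makes dTDP (0.79 ± 0.13), and Ctps (0.71 ± 0.14) were higher, and Samhd1, which breaks down dNTPs (-1.36 ± 0.18), Tk2 (-0.79 ± 0.16) and Dguok (-0.58 ± 0.16) lower. Of 13 further genes of chromatin copying 10 were higher and 0 lower, led by Nasp (0.93 ± 0.18), Dnmt1 (0.87 ± 0.19), Lmnb1 (0.88 ± 0.21) and Rbbp4 (0.43 ± 0.11). Mitosis genes were called in 25 of 26 (median 1.13), led by Ccnb1 (1.68 ± 0.26). In late against early glioma cells edgeR called 0 genes of these 4 lists, and without 3057E 8 higher of 37, 3 higher and 1 lower of 28, 3 higher of 13 and 17 higher of 26 (8.58% of all genes were then higher and 8.61% lower). The replication and mitosis lists share Top2a. Dna2 and Dguok were named after their values were seen, to complete the counts of lower genes.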

How the data were processed

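RNA of sorted glioma and surrounding cells from 12 tumours was sequenced (24 libraries, 4 per population and stage). PolyA RNA went into a CORALL library kit, per the labels' protocols. As deposited, the table holds an expected count for every gene and library, which the authors obtained with RSEM 1.3.1 after STAR 2.7.5c on GRCm38 (mm10), per the submitters' processing notes. Annotation release, strand setting and use of molecular identifiers are not given in the sources used here, so reads of overlapping genes and near-identical copies may be shared.

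Rounding to whole numbers shifted library totals by at most 95.2 counts. Libraries of a group were no copies of each other (chi-square over degrees of freedom at least 22.2). Coordinates came from GENCODE release M21, which held 98.7% of the identifiers. Fits ran in edgeR 4.0.16 (R 4.3.3), scaled by TMM and filtered with filterByExpr at a minimum count of 10, by the robust quasi-likelihood test on group means with no other term. Stages were compared in the 12 libraries of a population, and populations and interactions in all 24. P-values were Benjamini-Hochberg adjusted over all genes tested and called under 0.05. Errors are SE from the F statistic. DESeq2 1.42.0 and limma 3.58.1 (voom with sample weights) were alternatives, beside other filters, scalings, each tumour left out, both crossed tumours left out, a tumour block and a microglia term. Nothing says that libraries of a group came from separate litters, so p-values measure the spread between these tumours.

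By their shared code, populations of a tumour were taken to come from the same animal, which pairs them. Correlations of their deviations from the group means ran from 0.0247 to 0.482 and were highest with the own code for 9 of 12 tumours. They were 0.0420 for 3108D and 0.0247 for 3109D, against 0.466 and 0.358 with each other's partner. For 3057E the correlation was 0.116, against 0.157 with the partner of another tumour. The male transcript Ddx3y was crossed as Xist was. It was 0.199 CPM in glioma and 62.0 CPM in surrounding cells of 3108D, and 65.3 and 0 CPM in those of 3109D. As labelled, the populations of 3108D and of 3109D are thus of unlike sex. These codes may be exchanged, which the labels do not settle.

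The fits were tested on simulated data with known changes. The simulated libraries held no tumour pairs and no outlying tumour, and no result given here rests on them.

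Members and lists were chosen with earlier results of these data known. All 39 members are accounted for in each comparison. Values in every library are given for Mcm2, Mcm6, Pcna, Rrm2, Tyms, Tk1, E2f1 and Slbp and for up to 4 members per direction with the smallest p in a comparison. Of further lists, up to 4 genes with the smallest p are named. Promoter segments and words came from RefSeq windows.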

Additional observations from a re-analysis of the deposited data

Results flagged for a closer look

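In 12 of 234 groups of 4 libraries (39 genes, 6 groups each), 1 library lay far from the other 3. That is 5.13% of groups, and chance gives about 5%, so the number is near the chance share. Surrounding cells of the early tumour 3145A stood high for 7 genes: Mcm3 at 67.7 CPM (others 39.2 to 42.5), Gins2 at 18.3 (10.8 to 11.9), Pcna at 197 (84.2 to 103), Rfc3 at 18.8 (9.94 to 10.99), Rfc4 at 10.3 (4.06 to 5.10), Rpa2 at 27.4 (9.94 to 12.3) and Rrm2 at 90.1 (16.4 to 22.9). Its own glioma cells had the highest Pcna and Rrm2 of the 12 glioma libraries. Surrounding cells of 3108C stood low for Pola1 at 7.42 CPM (others 22.9 to 25.6), those of 3054C high for Rrm1 at 107 (78.9 to 80.1) and those of 3228A high for Tk1 at 16.5 (8.92 to 10.1). In glioma cells, 3057E stood low among late tumours for Mcm3 at 42.5 CPM (others 127 to 135) and 3228D low among asymptomatic ones for Rrm2 at 60.9 (116 to 123).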

How the results depend on the processing

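Percentages are the shares of all genes called higher in the same setting, which moved too. The 19 members higher in glioma cells (22.0%) gave 17 to 26 calls under other tools, scalings and filters (9.29% to 29.98%), 14 to 22 when each tumour was left out in turn (16.0% to 23.7%), 10 without 3108D and 3109D (13.3%), and 26 with the tumour as a replicate block (28.6%), also with those codes exchanged (29.5%). For asymptomatic tumours the 1 call (1.30%) became 11 in limma voom (10.5%), 0 with no count filter (0.215%), 0 to 2 with each tumour left out (0.0779% to 3.12%), 0 without 3108D and 3109D (0.509%), 10 with the replicate block (4.39%) and 20 with the block exchanged (5.87%). For early tumours the 0 calls (1.06%) became 2 with the replicate block (2.80%) and 4 with it exchanged (3.82%). For late tumours the 12 (15.4%) became 21 in limma voom (23.96%), 6 to 13 with each tumour left out (7.14% to 19.5%), 23 with the replicate block (22.8%) and 24 with it exchanged (24.1%). Late against early glioma cells gave 0 calls, 2 in DESeq2 (3.38%), 19 in limma voom (8.49%) and 0 to 10 with each tumour left out (0.0118% to 8.58%). Limma voom also gave 1 call for late against asymptomatic glioma cells, 1 for late against early and 2 for late against asymptomatic surrounding cells, and 1 in each of the late interactions. The interaction of late against asymptomatic gave 0 to 1 with each tumour left out (0.00% to 3.23%). Over all counts and settings, 234 recomputed counts stayed within 1.5 times and 33 did not. Of single gene values 765 kept direction and side of the threshold, 83 lost the call, 10 gained one and 3 reversed, all for Rrm2 late against early in glioma cells: -0.066 without 3054C, -0.013 without 3108D and -0.29 without both 3108D and 3109D, in a range of -0.066 to 1.12 over single tumours left out. The cause was not tested. Depth limits genes such as Ung and Cdc6, listed at 0.178 and 0.712 CPM in glioma 3108C.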

Other observations

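Genes of replication-coupled repair and of G1 and S control were also counted in glioma against surrounding cells (edgeR, adjusted p under 0.05). In that contrast 22.0% of all genes were called higher and 24.2% lower. Of 18 repair genes 13 were higher and 0 lower, led by Usp1, which removes ubiquitin from Pcna and Fancd2 (0.66 ± 0.12), Rad18, which adds it to Pcna (1.04 ± 0.20), Brca2 (0.78 ± 0.19) and Fancd2 (1.06 ± 0.27). Of 31 G1 and S control genes 17 were higher and 2 lower. Cdk6, a G1 kinase, was lower (-3.45 ± 0.48), and Tfdp1, the partner of E2F factors (0.88 ± 0.14), Cdkn2a, a brake on G1 kinases (1.60 ± 0.28), and Ccna2, the S phase cyclin (1.43 ± 0.26), were higher. E2f4 was the other lower gene (-0.44 ± 0.13) and was named after its value was seen. In late against early glioma cells edgeR called 0 of either list, and without 3057E 6 higher of 18 repair genes, and 4 higher and 2 lower of 31 control genes, against 8.58% of all genes higher and 8.61% lower, with Cdkn2a at 3.13 ± 0.31 and Cdk6 at -3.11 ± 0.83.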
